A study of Mus musculus with 43 samples.

Results

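The genes described here are *Cnr1*, which encodes the CB1 cannabinoid receptor, and 8 enzymes that make or break down its lipid ligands (*Dagla*, *Daglb*, *Mgll*, *Abhd6*, *Abhd12*, *Napepld*, *Abhd4* and *Faah*). They are 9 of the 35825 genes listed. *Abhd4* was selected on its difference between diets in these same cells and the others were chosen by their place in the pathway, so its values are given as a description and with no test. Expression was read by patch sequencing in 43 NAcLat→VTA cells, which are neurons of the lateral nucleus accumbens that project to the ventral tegmental area. C57BL/6J mice of 6 to 8 weeks of age received regular chow alone (REG, 23 cells) or had free access to both regular chow and a chow with 60% fat for at least 4 weeks (HFD, 20 cells). All mice of both diets were injected with fluorescent retrobeads in the ventral tegmental area, and the cytosol of bead-labelled cells was drawn into the patch pipette after whole-cell recording. The cells came from 10 REG and 11 HFD mice, but no label ties a cell to its mouse. Each diet was therefore handled as 1 sample, with no test between diets, and every interval below covers counting error only. Cells are named by diet and a number that carries no order.

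Endocannabinoids are lipid messengers that a neuron makes on demand and that act mostly on CB1 receptors of the axon terminals facing it, where they lower transmitter release. 2-arachidonoylglycerol (2-AG) is made by the diacylglycerol lipases DAGLα and DAGLβ and is cleaved mainly by monoacylglycerol lipase (*Mgll*), with ABHD6 and ABHD12 as further hydrolases. Anandamide belongs to the N-acylethanolamines, which arise from N-acyl phosphatidylethanolamines through NAPE-PLD or through a route that starts with ABHD4, and which FAAH degrades. Medium spiny neurons, the principal cells of the accumbens, express CB1 and use 2-AG as a retrograde signal.

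Total estimated counts per cell ran from 176961 to 16919555 with a median of 1426795, and the deepest library was that of REG cell 14. *Lars2* alone accounted for 26.1% of the counts in the median cell. The labels put 13 REG and 5 HFD cells in batch 1, and 10 REG and 15 HFD cells in batch 2, and they do not say what a batch is. No 2 of the 43 libraries held identical values. The cell type label was checked against defining markers. *Gad1*, *Gad2*, *Ppp1r1b*, *Drd1*, *Tac1* and *Pdyn* were detected in 43 of 43 cells, *Bcl11b* in 42, and *Slc32a1* and *Isl1* in 36 each. Of the D2 markers, *Drd2* was detected in 9, *Adora2a* in 13, *Penk* in 35 and *Gpr6* in 6. The D2 sum had medians of 13.2 CPM (counts scaled to a total of 1000000 in each cell) in REG and 12.5 CPM in HFD cells. It reached 582 CPM in REG and 1380 CPM in HFD cells. Interneuron markers were detected less often, *Chat* in 5, *Npy* in 13 and *Pvalb* in 24. The glutamatergic markers were *Slc17a6* in 6, *Slc17a7* in 25 and *Slc17a8* in 27. Over all 3 glutamatergic markers the summed median was 4.51 CPM in REG and 4.27 CPM in HFD cells. Transcripts of other cell types were present. The summed level of 5 oligodendrocyte markers had medians of 97.7 CPM in REG and 149 CPM in HFD cells, and reached 1126 and 1781 CPM. For 6 astrocyte markers the medians were 40.7 and 35.03 CPM, and the highest sums were 449 and 639 CPM. For 4 endothelial markers the medians were 2.38 and 0.762 CPM. The summed level of 7 microglial markers ranged from 0.341 to 1326 CPM in REG cells and from 2.61 to 1467 CPM in HFD cells, with medians of 50.8 and 52.3 CPM.

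Levels were first compared between the genes, for which TPM (a measure per transcript length that is scaled to 1000000 in each cell) was used. The hydrolases of 2-AG stood at the top of the order. *Abhd12* had the highest median, 130 TPM over 43 cells, followed by *Mgll* with 36.8 TPM and *Abhd6* with 12.4 TPM. The lipases that make 2-AG were lower, at 4.09 TPM for *Daglb* and 2.43 TPM for *Dagla*. *Faah* had a median of 1.96 TPM, *Cnr1* of 0.66 TPM, *Napepld* of 0.35 TPM and *Abhd4* of 0 TPM. *Abhd12* was thus the most abundant of the 9 transcripts, and it held the top place in 23 of the 43 cells against 12 for *Mgll*, 4 for *Abhd6*, 3 for *Daglb* and 1 for *Abhd4*.

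Neighbours in this order were also compared cell by cell. The widest separation was that of *Faah*, which was above *Cnr1* in 32 cells and below it in 11. *Abhd12* exceeded *Mgll* in 29 cells, *Abhd6* exceeded *Daglb* in 28, *Mgll* exceeded *Abhd6* in 25 and *Cnr1* exceeded *Napepld* in 24. *Daglb* was above *Dagla* in 20 cells, below it in 17 and equal to it in 6. *Faah* was above *Dagla* in 27 cells although its median was lower. The interquartile ranges of all neighbouring pairs overlapped, so the order describes these medians and separates no adjacent pair. By mean TPM, 4 of the 9 genes kept their place, and *Abhd4* moved from the last to the sixth place with a mean of 12.6 TPM.

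**Figure D1:**
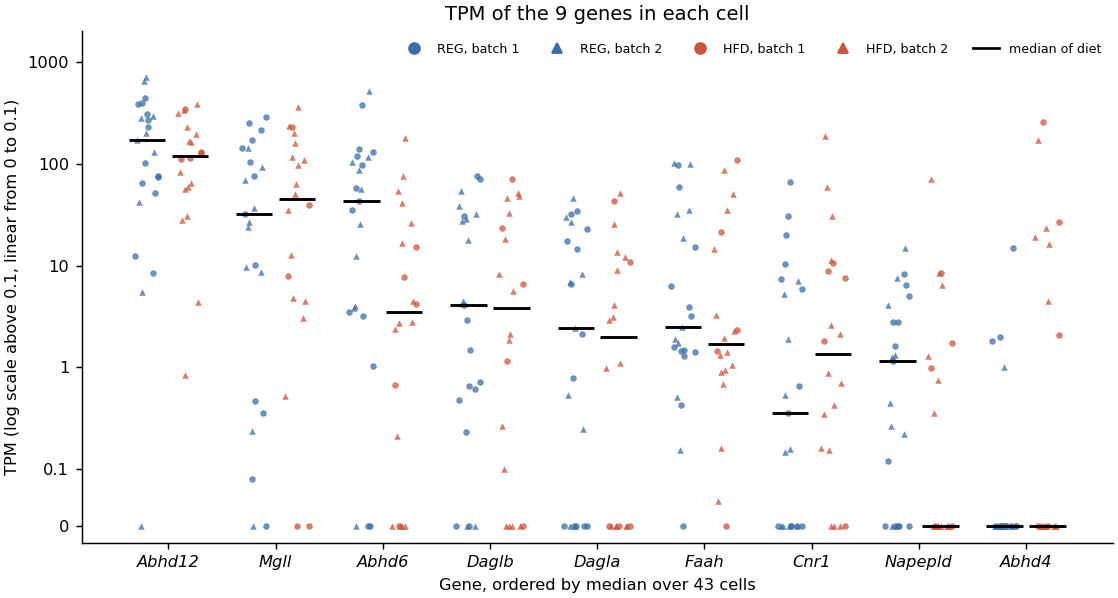
Each point is 1 cell and gives its TPM (vertical axis, logarithmic above 0.1 and linear from 0 to 0.1) for the 9 genes, ordered along the horizontal axis by their median over 43 cells. REG cells are blue, HFD cells red, circles batch 1, triangles batch 2 and black bars the median of a diet. *Abhd12* stood highest with a median of 130 TPM, and most points of *Abhd4* lay at 0.

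Summed by role, the 3 hydrolases of 2-AG had a median of 294 TPM and ranged from 5.58 to 762 TPM, while the 2 synthases had a median of 18.01 TPM and ranged from 0 to 93.1 TPM. The hydrolase sum was above the synthase sum in 41 of 43 cells, and the mean of the first was 11.96 times the mean of the second. *Abhd12* made up 57.5% of the summed hydrolase TPM in REG cells and 57.7% in HFD cells. These close shares joined opposite differences in the batches, 51.3% in REG and 73.0% in HFD cells of batch 1 against 65.1% and 53.4% in batch 2. *Mgll* held 19.8% in REG and 33.8% in HFD cells. This difference came from batch 2 (10.7% and 36.4%), and in batch 1 the *Mgll* share was lower in HFD cells (27.3% and 24.6%). *Abhd6* held 22.7% in REG and 8.47% in HFD cells, with ranges of 18.2 to 24.5% and 5.31 to 9.54% when single cells were left out, and its share was lower in HFD cells of both batches (21.4% and 2.48% in batch 1, 24.2% and 10.2% in batch 2). A cell contained counts for a median of 7 of the 9 genes, with 3 at the lowest and 9 at the highest.

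*Abhd4* encodes a hydrolase that removes acyl chains from N-acyl phosphatidylethanolamines. It lies on chromosome 14 from 54254188 to 54270637 on the plus strand (GRCm38, GENCODE release M21). The nearest protein-coding gene before it is *Dad1*, which encodes a subunit of the oligosaccharyltransferase of the endoplasmic reticulum, which is read from the opposite strand, and which ends 84 bases away in that annotation. The 2 genes therefore start head to head. In RefSeq (GRCm38.p6) their first bases are at 54254129 for *Abhd4* and 54253929 for *Dad1*, and RefSeq lists a second *Abhd4* start at 54259283. In GENCODE release M21 *Dad1* reaches 54254104, so the 2 annotations place its start differently and part of the stretch below lies inside it there. The diet ratios of both genes are given side by side further on. The 199 bases between the facing RefSeq starts, chr14:54253930-54254128, are shown because in RefSeq 1 stretch of sequence precedes both genes. They read 5′ to 3′ on the plus strand, with matches to the motifs CCAAT and GGGCGG on either strand in capitals:

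Dad1 to Abhd4: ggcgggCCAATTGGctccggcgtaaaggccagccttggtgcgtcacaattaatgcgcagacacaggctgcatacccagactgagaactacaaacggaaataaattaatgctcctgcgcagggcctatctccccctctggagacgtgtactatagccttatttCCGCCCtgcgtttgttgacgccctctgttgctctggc

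CCAAT matched 2 times, once on each strand with overlapping letters, 193 and 190 bases before the *Abhd4* start, which is the end near *Dad1*. GGGCGG matched once, on the minus strand, 37 bases before the *Abhd4* start. TATAAA did not match. Of the 32851 RefSeq promoter windows of the same length, 29.3% held CCAAT, 31.01% GGGCGG and 9.93% TATAAA on either strand. The stretch contained 11 CG pairs, and 31.6% of the windows held at least as many.

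*Abhd4* was nearly absent from REG cells and was high in a few HFD cells. In REG cells its level was 0 CPM at the lowest and at the median and 2.56 CPM at the highest, and in HFD cells it was 0 CPM at the lowest and at the median and 215 CPM at the highest. The diets overlapped in the many cells at 0, and the 6 highest values all belonged to HFD cells. The mean was 0.307 CPM in REG and 26.6 CPM in HFD cells, which is a log2 ratio of 6.44, or 86.8-fold. The ratio ranked second among the 10802 genes that passed the filter on low values (more than 15 CPM in no fewer than 5 cells, and over 4 CPM on average). *Abhd4* passed that filter through its HFD cells alone.

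Cell by cell, 4 of 23 REG cells (17.4%, exact 95% binomial interval 4.95 to 38.8%) and 8 of 20 HFD cells (40.0%, 19.1 to 63.9%) had any *Abhd4* count. The 4 REG cells held 1, 2, 3 and 5 counts. The HFD cells held 1, 12 and 732 counts in batch 1, and 1, 33, 45, 113 and 561 counts in batch 2. At least 10 counts were thus reached in 0 of 23 REG cells, which allows a share of up to 13.04% at a limit of 3 cells (exact 95% binomial limit 14.8%), and in 6 of 20 HFD cells, 2 of batch 1 and 4 of batch 2. When each cell was thinned to 150000 counts, *Abhd4* was left in 0 REG cells and 6 HFD cells. The detection limit differed among the cells without it, since 3 counts would have been 0.177 to 16.95 CPM in the 19 such REG cells and 0.364 to 16.8 CPM in the 12 such HFD cells.

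**Figure D2:**
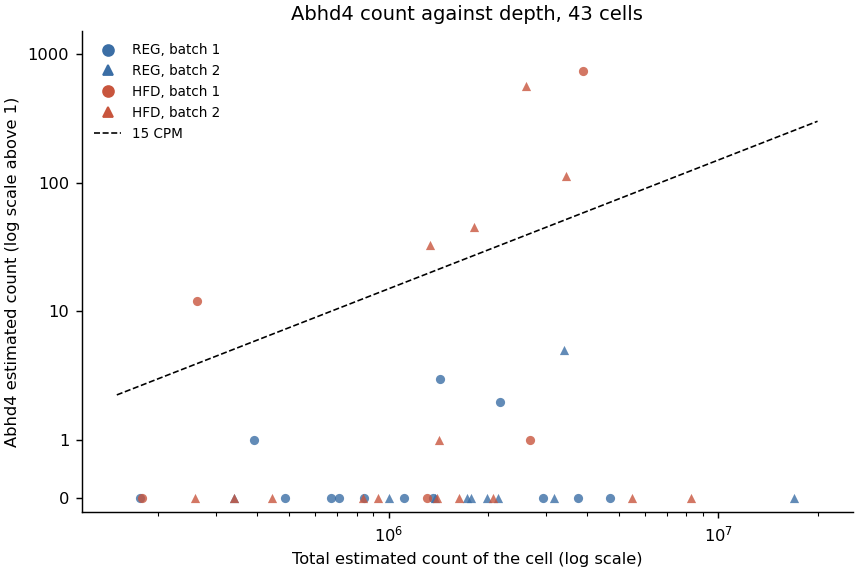
The estimated *Abhd4* count (vertical axis, logarithmic above 1 and linear from 0 to 1) is plotted against the total estimated count of the cell (horizontal axis, logarithmic) for 43 cells, with colours for diet and symbols for batch. The dashed line is 15 CPM. The 6 points above the line are HFD cells, and the 4 REG cells with *Abhd4* lie at 5 counts or fewer.

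All REG cells together held 11 *Abhd4* counts and all HFD cells 1498, with exact 95% Poisson intervals of 5.49 to 19.7 and 1423 to 1576. These intervals treat each count as independent, although the cDNA was amplified before sequencing, and they do not cover the spread among cells. HFD cells 5 and 17 together gave 86.3% of the HFD counts. Without HFD cell 17 the log2 ratio was 5.77. In an added comparison, chosen after the values were seen, HFD cells 5 and 17 were both left out, and the mean over the remaining 18 HFD cells was 7.15 CPM with a log2 ratio of 4.54. The direction was the same in both batches. In batch 1 the mean was 0.430 CPM in REG and 46.9 CPM in HFD cells (log2 ratio 6.77), from summed counts of 6 and 745. In batch 2 it was 0.146 and 19.8 CPM (7.08), from summed counts of 5 and 753. All 5 REG counts of batch 2 came from REG cell 23, so without that cell batch 2 gives no ratio.

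Other properties of the cells with *Abhd4* varied widely. HFD cell 5, with 189 CPM of *Abhd4*, had 573 CPM of summed microglial markers, and HFD cell 17, with 215 CPM, had 267 CPM. HFD cell 17 also had 639 CPM of astrocyte markers, the highest sum of any cell, 662 CPM of oligodendrocyte markers and 5150 genes after thinning, against HFD medians of 35.03 CPM, 149 CPM and 7251.5 genes. HFD cell 5 had 51.3 CPM of astrocyte and 21.5 CPM of oligodendrocyte markers. HFD cells 9 and 16, with 24.7 and 32.7 CPM of *Abhd4*, had 398 and 524 CPM of microglial markers, against an HFD median of 52.3 CPM. HFD cells 2 and 10, with 45.7 and 24.7 CPM of *Abhd4*, had 3.81 and 3.92 CPM of microglial markers. Among the REG cells with *Abhd4*, cell 23 (5 counts) had a microglial sum of 361 CPM, and cells 5, 7 and 10 had 0.972, 2.10 and 12.8 CPM. HFD cell 4 had the highest microglial sum of any cell, 1467 CPM, and 1 *Abhd4* count. Across the 43 cells, which share depth and library effects, Spearman's rho of *Abhd4* was 0.12 with the microglial sum, 0.13 with the astrocyte sum, −0.16 with the oligodendrocyte sum and 0.18 with the total count. The part of other cell types in the *Abhd4* counts was not tested beyond these values. Every one of the 12 *Abhd4* counts above 0 was a whole number. None of the 3342 31-base words of its transcripts occurs in another gene. Whether reads from other sequence entered its counts was not tested.

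The pooled ratios of both neighbours lay between −1 and 1. *Dad1* was detected in 23 REG and 19 HFD cells, with means of 104 CPM in REG and 80.0 CPM in HFD cells and a log2 ratio of −0.38 (0.06 in batch 1 and −0.26 in batch 2). *Olfr49*, an odorant receptor gene 7616 bases beyond the other end, had means of 8.54 and 10.8 CPM and a log2 ratio of 0.34, with 1.96 in batch 1 and −0.98 in batch 2. The genes most like *Abhd4* in pattern were *Casp9* (Spearman's rho 0.54), *Prpf3* (0.54) and *0610010F05Rik* (0.52) over 43 cells, where the 99th percentile of all filtered genes was 0.36. Likeness was chosen from these values, and *Abhd4* was at 0 in 31 cells, so these rhos largely describe the same 12 cells.

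**Figure D3:**
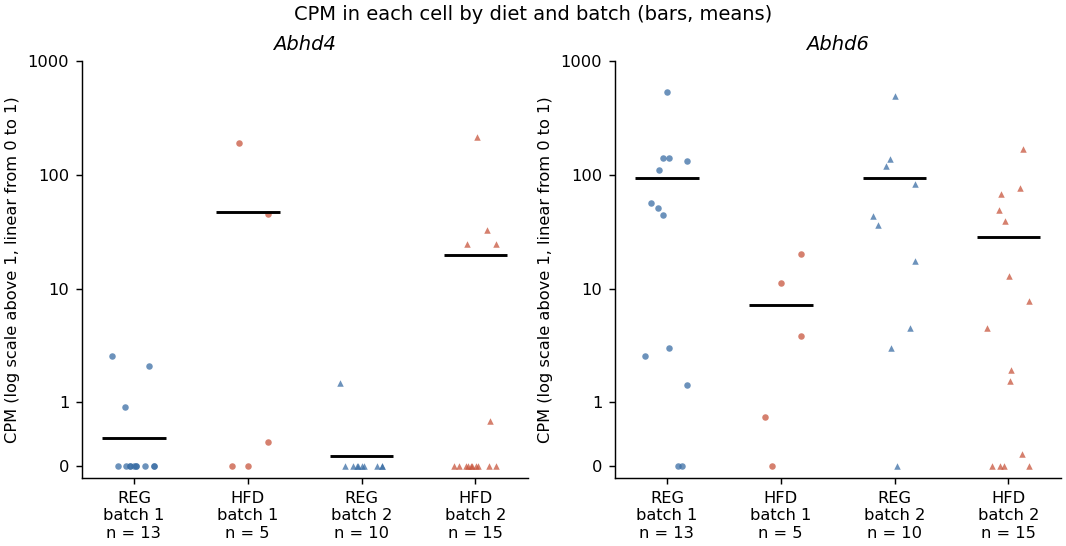
CPM (vertical axes, logarithmic above 1 and linear from 0 to 1) of *Abhd4* (left) and *Abhd6* (right) is shown for each cell by diet and batch, with black bars for the means. In *Abhd4* the HFD bars stood at 46.9 and 19.8 CPM against 0.430 and 0.146 CPM in REG, and in *Abhd6* the REG bars stood at 93.5 and 94.2 CPM against 7.17 and 28.6 CPM in HFD.

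Diet ratios of all 9 genes were read against those of the 10802 filtered genes, which all 9 genes passed. Of the filtered genes, 9.04% had a log2 ratio above 1 and 14.3% had one below −1, and their median was −0.13. Among the 9 genes, 2 were above 1 (*Cnr1* and *Abhd4*), 1 was below −1 (*Abhd6*) and 6 lay between, with a median of 0.049. *Abhd4* was chosen for its ratio, so the count above 1 cannot be read as a result about the pathway. Only *Abhd4* was above 1 in both batches, as were 3.24% of the filtered genes, and only *Abhd6* was below −1 in both, as were 6.04%. The sign of the ratio was the same in both batches for 5 of the 9 genes and for 49.2% of the filtered genes.

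**Figure D4:**
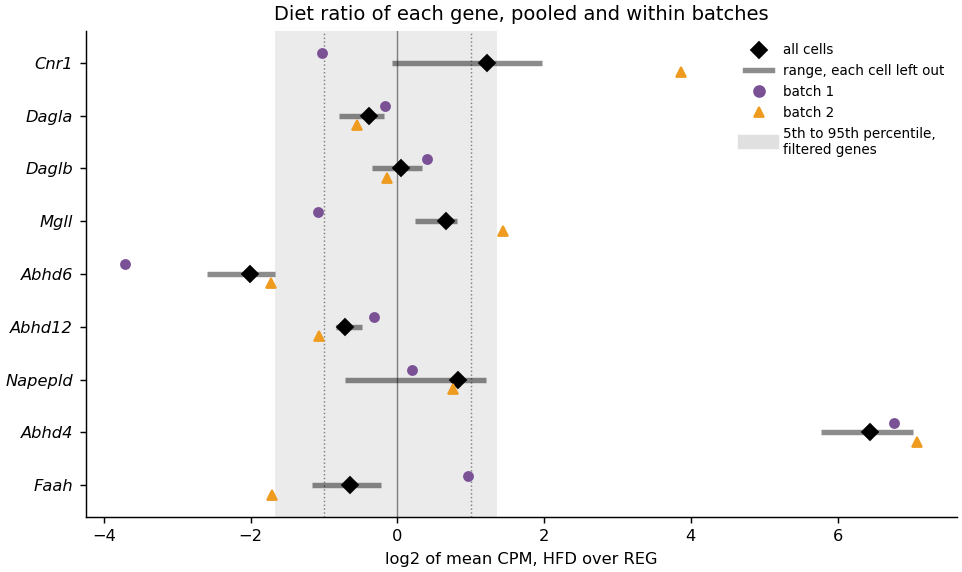
The log2 ratio of mean CPM, HFD over REG (horizontal axis), is given for each gene as a diamond for all cells, a circle for batch 1 and a triangle for batch 2. Thick bars span the pooled ratios obtained when each cell was left out in turn. The grey band spans the 5th to 95th percentile of the pooled ratios of the filtered genes, −1.65 to 1.35. Ratios within a batch come from fewer cells than this band. *Abhd4* lay beyond this pooled band in both batches, as did *Abhd6*, narrowly so in batch 2 (−1.72). The batch values of *Cnr1*, *Mgll*, *Daglb* and *Faah* fell on opposite sides of 0.

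*Abhd6*, a membrane-bound hydrolase that limits 2-AG near its site of synthesis in the postsynaptic neuron, was lower in HFD cells. It ranged from 0 to 531 CPM in REG cells with a median of 44.7 CPM, and from 0 to 168 CPM in HFD cells with a median of 4.15 CPM. The ranges overlapped, and both diets included cells at 0. REG cells averaged 93.8 CPM and HFD cells 23.2 CPM, so that the log2 ratio was −2.01, or 4.04-fold lower in HFD cells. *Abhd6* was detected in 20 of 23 REG cells (87.0%, exact 95% binomial interval 66.4 to 97.2%) and in 15 of 20 HFD cells (75%, 50.9 to 91.3%), and it passed 15 CPM in 15 REG and 6 HFD cells.

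Leaving out each cell in turn gave *Abhd6* ratios from −2.59, without HFD cell 12, to −1.67, without REG cell 1. The 531 CPM of REG cell 1 came from 94 counts in the shallowest library (176961 counts). That cell also had 582 CPM of D2, 345 CPM of astrocyte and 220 CPM of oligodendrocyte markers. The REG medians of these sums were 13.2, 40.7 and 97.7 CPM, and their part in its *Abhd6* value was not tested. In batch 1 the ratio was −3.71, from 1455 counts in 13 REG cells and 58 counts in 5 HFD cells. In batch 2 it was −1.72, and without REG cell 14, which alone held 497 CPM, it was −0.79, no longer below −1. That deepest cell also gave 77.5% of the 10851 REG counts, so the summed counts (10851 against 1074) rest largely on 1 cell. Medium spiny neuron markers were also lower in HFD cells of batch 2, where their summed median was 3584 CPM in REG and 1882 CPM in HFD cells, against 3419 and 3628 CPM in batch 1. Spearman's rho of *Abhd6* with that sum was 0.36 over 43 cells, and its part in the ratio was not tested. The locus *Gm1833* shares 10.3% of the 31-base words of *Abhd6*, but it was detected in only 1 cell.

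*Mgll* and *Abhd12*, the other hydrolases of 2-AG, lay inside the limits. *Mgll* ranged from 0 to 209 CPM in REG cells with a median of 65.7 CPM, and from 0 to 617 CPM in HFD cells with a median of 69.1 CPM. The ranges and medians overlapped closely, and the pooled log2 ratio of 0.67 became 0.24 without HFD cell 19. The batches went opposite ways, with −1.08 in batch 1 and 1.44 in batch 2. *Abhd12*, whose loss causes a neurodegenerative disease in humans, ranged from 0 to 891 CPM in REG cells with a median of 165 CPM, and from 0.711 to 341 CPM in HFD cells with a median of 118 CPM. Its log2 ratio was −0.71, and −0.32 and −1.06 in the batches. It was the most widely detected of the 9 genes, with counts in 42 of 43 cells.

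The 2-AG synthases had pooled ratios inside the limits. *Dagla* had medians of 8.79 CPM in REG and 6.35 CPM in HFD cells, overlapping ranges that reached 167 and 192 CPM, and a log2 ratio of −0.38 (−0.16 in batch 1 and −0.55 in batch 2). *Daglb* had medians of 10.8 and 5.27 CPM, ranges that reached 201 and 231 CPM, and a log2 ratio of 0.05. Its direction depended on single cells, from −0.35 without HFD cell 1 to 0.34 without REG cell 2. The count of *Daglb* is itself uncertain. Its locus on chromosome 5 overlaps *Rac1* on the opposite strand, 24.5% of its 31-base words occur in other genes, mostly *Rac1*, and 17.6% of its counts were whole numbers within 0.01. *Rac1* was detected in 43 of 43 cells, and rho between the 2 genes was 0.009.

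*Cnr1* was found in 30 of 43 cells, 14 of 23 REG cells (60.9%, exact 95% binomial interval 38.5 to 80.3%) and 16 of 20 HFD cells (80.0%, 56.3 to 94.3%). It ranged from 0 to 277 CPM in REG cells with a median of 1.496 CPM, and from 0 to 793 CPM in HFD cells with a median of 5.69 CPM. The ranges overlapped over nearly all cells. The pooled log2 ratio was 1.22, from means of 27.9 and 64.7 CPM. HFD cell 19 alone supplied 61.2% of the HFD mean, and without it the ratio was −0.077. In batch 1 the *Cnr1* mean was lower in HFD cells, with a log2 ratio of −1.03. The batch 1 median was instead higher in HFD cells, at 28.6 CPM against 2.10 CPM in REG cells. REG cell 1, the shallowest library, held the 277 CPM, and leaving out single cells of batch 1 gave −1.46 to −0.225. In batch 2 the mean was higher in HFD cells, with a ratio of 3.86, and 2.36 to 4.66 with single cells left out.

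HFD cell 19 carried both the highest *Cnr1* (793 CPM) and the highest *Mgll* (617 CPM) of any cell. It had 5327 CPM of summed D1 markers, 5466 CPM of medium spiny neuron markers and 2.61 CPM of microglial markers, the lowest microglial sum among HFD cells. Its astrocyte sum of 628 CPM and oligodendrocyte sum of 762 CPM were far above the HFD medians of 35.03 and 149 CPM, and it had 3511 genes after thinning against an HFD median of 7251.5. The part of these in its *Cnr1*, *Mgll* and *Naaa* values was not tested. It held no count of *Dagla*, *Napepld* or *Abhd4* and under 0.2 CPM of *Daglb*, *Abhd6* and *Faah*. Over 43 cells, *Cnr1* had a rho of 0.51 with the medium spiny neuron sum and 0.43 with the D1 sum. Its pattern was most like that of *Mrpl42* (0.62), *Creb1* (0.58) and *Ccnl2* (0.57), where the 99th percentile of filtered genes was 0.42.

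*Napepld*, the phospholipase of the main anandamide route, was low throughout. Its median was 3.01 CPM in REG and 0 CPM in HFD cells, and its highest values were 36.3 and 143 CPM. The ranges overlapped. It was detected in 16 of 23 REG and 9 of 20 HFD cells, so the diet with the higher mean had fewer cells with counts. The means of 5.99 and 10.7 CPM gave a log2 ratio of 0.83, which was −0.71 without HFD cell 17, the cell that also held the highest *Abhd4* CPM. *Faah* ranged from 0 to 231 CPM in REG cells with a median of 6.97 CPM, and from 0 to 152 CPM in HFD cells with a median of 4.84 CPM. The ranges overlapped, and its log2 ratio was −0.65, with 0.96 in batch 1 and −1.71 in batch 2. Of the counts above 0, 53.7% of those of *Faah* and 32.0% of those of *Napepld* were whole, so part of their reads was divided with other transcripts.

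Batch was then compared within a diet, because the 2 batches hold different shares of each diet. Within REG cells, 18.8% of the filtered genes had a log2 ratio of batch 2 over batch 1 above 1 and 18.5% had one below −1. Of the 9 genes, *Faah* was above 1 (1.38), and *Cnr1* (−3.06) and *Abhd4* (−1.55, from 6 and 5 counts) were below −1. Within HFD cells the shares were 23.4% and 24.8%. *Cnr1* (1.84), *Mgll* (1.74), *Abhd6* (1.99) and *Napepld* (1.07) were above 1 there, and *Abhd4* (−1.24) and *Faah* (−1.28) were below −1. By mean, *Cnr1* and *Faah* thus had opposite batch directions in the 2 diets. By median, *Cnr1* was lower in batch 2 of both diets. Its medians in batches 1 and 2 were 2.10 and 0.574 CPM in REG cells, and 28.6 and 3.87 CPM in HFD cells. The HFD batch 2 means of *Cnr1* and *Napepld* included HFD cell 19 (793 CPM) and HFD cell 17 (143 CPM). The HFD median of *Napepld* was 2.35 CPM in batch 1 and 0 CPM in batch 2. *Abhd6* had close means in both batches of REG cells, with a log2 ratio of 0.010, and *Abhd12* (0.65 and −0.10), *Dagla* (0.22 and −0.16) and *Daglb* (0.15 and −0.40) stayed within 1 in both diets.

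Correlations among the 9 genes from cell to cell were mostly weak. Over the 36 pairs, Spearman's rho ran from −0.25 for *Abhd6* with *Abhd4* to 0.48 for *Abhd6* with *Abhd12*, with a median of 0.12. All values in these rhos share a cell's total. Weak rhos were found for pairs detected together in few cells (*Cnr1* with *Abhd4*, −0.076, 9 cells) and in many (*Mgll* with *Abhd12*, −0.066, 38 cells). The part of sparse counts in them was not tested.

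Other genes of endocannabinoid signalling were taken from a list of 26 genes of synthesis, transport, breakdown, response and receptor regulation, of which 14 passed the filter. Of these 14, 1 was above a log2 ratio of 1, 0 were below −1 and 13 lay between, with a median of −0.13, beside 9.04% above and 14.3% below among all filtered genes and their median of −0.13. The one above was *Naaa*, which encodes a lysosomal amidase that prefers palmitoylethanolamide. Its means were 10.03 CPM in REG and 40.9 CPM in HFD cells (log2 ratio 2.03, and 1.88 and 2.11 in the batches), and HFD cell 19 supplied 63.3% of the HFD mean, without which the ratio was 0.65. *Cnr2*, the CB2 receptor mostly found in immune cells, was detected in 8 REG and 7 HFD cells and had means under 1 CPM. *Gpr55*, a receptor for lysophosphatidylinositol, had 1 count in 1 REG cell. The most abundant genes of the list were *Fabp3* (median 189 TPM) and *Fabp5* (179 TPM), which encode fatty acid carriers, and *Gde1* (108 TPM), a phosphodiesterase that acts after ABHD4 in its route. *Gde1* was detected in 43 of 43 cells, with means of 168 CPM in REG and 155 CPM in HFD cells and a log2 ratio of −0.12.

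Among other genes of the alpha/beta hydrolase domain family, 16 were listed and 14 passed the filter. None was above a log2 ratio of 1, 1 was below −1 and 13 lay between, with a median of −0.21, beside the same 9.04% and 14.3% among all filtered genes. The one below, named here after its value was seen, was *Abhd11* (means of 53.1 CPM in REG and 13.7 CPM in HFD cells, log2 ratio −1.96), whose ratio was 0.05 in batch 1 and −4.72 in batch 2. *Abhd5*, the co-activator of adipose triglyceride lipase and the relative closest in sequence to *Abhd4*, had a log2 ratio of 0.28, with −1.70 in batch 1 and 0.30 in batch 2. The most abundant by median were *Abhd14a* (64.5 TPM), *Abhd17a* (61.0 TPM) and *Abhd16a* (51.5 TPM), all with log2 ratios between −1 and 1.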

How the data were processed

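Single-cell cDNA from 43 patched neurons was sequenced with 150-base reads. The authors pseudo-aligned the reads to Ensembl GRCm38 release 95 with kallisto 0.45.1, summed transcripts to genes and removed cells with few reads or genes. The authors deposited 1 table of estimated counts without normalization and 1 table of TPM computed within each cell. Of the estimated counts above 0, 65.5% were within 0.01 of a whole number. Counts were used as deposited, unrounded except in thinning, in TMM and in size factors. Kallisto divides reads of shared sequence between genes, and whether strand was used is not given in the sources used here.

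From the counts, CPM per cell, mean CPM per diet and log2 ratios without a pseudocount were computed in Python 3.11.15 (pandas 2.3.3, numpy 2.4.6, scipy 1.17.1). Levels were compared between genes by TPM. Genes passed the filter with more than 15 CPM in no fewer than 5 cells and over 4 CPM on average, and a log2 ratio past 1 in either direction was the size limit. No count model was fitted; edgeR 4.0.16 and DESeq2 1.42.0 (R 4.3.3) supplied only alternative scaling factors. Thinning drew 150000 counts per cell with a fixed seed. Intervals are exact Poisson or Clopper-Pearson at 95% and do not cover differences between mice. Scripts were tested on simulated data.

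Named were all 9 genes, *Cnr2*, *Gpr55*, *Abhd5*, the listed genes past the limit with the same sign in both batches, the 3 most abundant of each list, the 3 genes most like *Cnr1* and *Abhd4*, and the neighbours of *Abhd4*. Members and lists were chosen with earlier results of these data known. Promoter windows are RefSeq's, GRCm38.p6. *Abhd1* was not analysed here.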

Additional observations from a re-analysis of the deposited data

How the results depend on the processing

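*Abhd6* was lower and *Abhd4* higher in HFD cells under each alternative that gave a ratio, 11 and 10 of them, and with each of the 43 cells left out. The log2 ratio of *Abhd4* was 4.93 from TPM, 1.58 as a difference of mean log2(CPM + 1), 7.52 from summed counts, 5.12 after thinning with REG set to 3 counts (a lower bound), 4.54 without HFD cells 5 and 17, and 5.77 to 7.03 with single cells left out. Its median over cells was 0 in both diets and gave no ratio. In REG cells *Abhd4* was detected in 0 cells above 15 CPM and in 0 after thinning. *Cnr1* turned to −1.03 in batch 1 and ranged from −0.077 to 1.97 with single cells left out. *Daglb* kept its sign in 4 of 11 alternatives.

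Genes above 1 numbered 4 with TMM and 4 with DESeq2 size factors, which move the median of all filtered genes from −0.13 to 0.011 and 0.18, 1 by medians, 1 on the log2(CPM + 1) scale, 1 in batch 1, and 1 to 3 with single cells left out. Above 1 in batch 2 were *Cnr1* (3.86), *Mgll* (1.44) and *Abhd4* (7.08). From summed counts the same genes were above 1, at 2.94, 1.05 and 7.52. Genes below −1 numbered 2 by medians, 2 from summed counts, 3 in batch 1, 3 in batch 2, and 1 to 2 with single cells left out. The shares of all filtered genes past the limit under these settings are not given here. The shares of 9.04% and 14.3% hold for the pooled ratio of mean CPM, so these counts of genes cannot be read against them. Without the filter, 3119 genes were above 1 and 4405 below −1. By mean TPM, 4 of 9 genes kept their place. The causes were not tested. No paired analysis was possible because cells carry no shared replicate numbers and no test was made. Depth limits detection, since 3 counts exceed 15 CPM in the shallowest cells, and the number of mice behind a value is unknown.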
